A study of Mus musculus with 66 samples.

Results

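Avil, Cdsn, H2-M10.1, Akr1b7, Car6 and Try5 are 6 of the 22489 genes in an mRNA-Seq table of C2C12 cells, a mouse myoblast line that stops dividing and forms muscle fibres when serum is lowered. These 6 genes belong to tissues other than muscle. They were picked from these same measurements because their levels were near 0 in growing cells and high in differentiated cells of the GFP-H3.3, GFP-H3mm7 and GFP-H3mm11 lines, which the study calls the D3 group. The contrast of the D3 group with the other lines is therefore a description here, with no test, and so is the contrast of growing with differentiated cells for these 6 genes.

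The table held 20 libraries from 10 lines, with 1 growth and 1 differentiated library of each line. The lines were C2C12 cells without a transgene (WT) and 9 lines that stably carried an H3 histone with GFP at its N-terminus, namely H3mm16, H3mm13, H3mm12, H3mm11, H3mm7, H3t, H3.3, H3.2 and H3.1. H3.1, H3.2 and H3.3 are the known mouse H3 proteins and the others are the variants the study identified. The GFP-H3 genes were inserted by a transposon under a doxycycline-induced promoter, and GFP-positive cells were sorted. Growing cells were kept in 20% fetal bovine serum, and differentiated cells were harvested 48 h after transfer to 2% horse serum. Each line is 1 stable line with its own insertions, so the H3 protein, the line and the library cannot be told apart, and the 3 lines of the D3 group are not replicates of 1 line. The deposited values are FPKM, fragments scaled to the exon length of the gene and to the mapped fragments of the library, which allow levels to be compared between genes. Read numbers are unknown, so the counting error behind a value is unknown. The worth of 1 fragment differed between libraries from 0.883 to 1.77 relative to the first library. It was taken as the most common ratio between the 2 libraries, over genes above 0 and under 0.1 FPKM in both. That ratio was assumed to stand for 1 fragment in each. WT stood apart, with Gapdh at no more than 0.361 FPKM against at least 783 FPKM in every GFP-H3 line, and counts that lead the text are given without WT in the closing section.

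The unfolded protein response is the reaction of a cell to unfolded protein in the endoplasmic reticulum (ER). The kinase PERK slows translation and lets the transcription factor ATF4 be made, which turns on Ddit3, the gene of the transcription factor CHOP. The ATF6 and IRE1-XBP1 branches raise ER chaperones, among them Hspa5, the gene of BiP, and proteins that remove misfolded protein from the ER. ER stress signalling is also known to take place when myoblasts differentiate. Of the 6 genes, Avil and Car6 carry the older names DOC6 and DOC1 in RefSeq, which stand for genes downstream of CHOP, found as targets of CHOP in stressed cells. Avil encodes advillin, an actin-binding protein of the villin family known from sensory neurons. Car6 encodes the secreted carbonic anhydrase of saliva. Cdsn encodes corneodesmosin, an adhesion protein of cornified epidermis. H2-M10.1 is an MHC class Ib gene known from vomeronasal neurons, Akr1b7 an aldo-keto reductase known from the adrenal cortex and vas deferens, and Try5 a trypsin gene of the exocrine pancreas.

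The promoters of 2 pairs of genes are shown because, over the 20 libraries, Avil was most like H2-M10.1 and Akr1b7 most like Car6 (values further on). Each sequence holds 250 bases before and 50 bases from the transcription start in RefSeq (build GRCm38.p6), read 5′ to 3′ on the strand of the gene, with the matches to the motifs searched in capitals.
Avil, chr10:127000459-127000758, plus strand: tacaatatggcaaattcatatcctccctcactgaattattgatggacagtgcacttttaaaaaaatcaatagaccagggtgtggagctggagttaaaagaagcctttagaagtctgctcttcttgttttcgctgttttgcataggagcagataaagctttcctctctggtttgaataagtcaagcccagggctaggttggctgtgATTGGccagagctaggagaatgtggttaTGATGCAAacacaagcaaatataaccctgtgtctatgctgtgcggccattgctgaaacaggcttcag
H2-M10.1, chr17:36326101-36326400, minus strand: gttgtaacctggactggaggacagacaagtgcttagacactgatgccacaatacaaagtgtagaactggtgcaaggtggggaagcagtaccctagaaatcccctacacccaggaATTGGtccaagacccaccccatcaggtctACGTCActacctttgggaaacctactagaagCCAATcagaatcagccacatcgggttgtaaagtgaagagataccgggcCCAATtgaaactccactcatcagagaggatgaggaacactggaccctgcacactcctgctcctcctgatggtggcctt
Akr1b7, chr6:34412112-34412411, plus strand: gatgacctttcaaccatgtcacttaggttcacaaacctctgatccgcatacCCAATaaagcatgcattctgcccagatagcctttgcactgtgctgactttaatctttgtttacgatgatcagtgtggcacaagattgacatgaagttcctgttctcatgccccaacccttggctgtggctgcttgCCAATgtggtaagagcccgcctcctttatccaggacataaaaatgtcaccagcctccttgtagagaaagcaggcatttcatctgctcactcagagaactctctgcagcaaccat
Car6, chr4:150201086-150201385, minus strand: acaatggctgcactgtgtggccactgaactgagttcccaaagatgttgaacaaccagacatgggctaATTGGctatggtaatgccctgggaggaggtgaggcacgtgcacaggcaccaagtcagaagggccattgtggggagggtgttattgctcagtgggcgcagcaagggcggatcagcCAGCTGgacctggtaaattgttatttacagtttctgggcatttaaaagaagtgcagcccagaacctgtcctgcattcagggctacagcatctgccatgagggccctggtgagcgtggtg

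RefSeq promoters were found for 5 of the 6 genes, with a pair of them for Cdsn, and 8 motifs were searched on both strands of these 6 windows and of all 32851 mouse promoters in the table. TGATGNAA, the composite site of C/EBP and ATF proteins that CHOP-C/EBP dimers can also use, occurred in the Avil window, as TGATGCAA with its first base at -17, and in 3.97% of all promoters. TGACGT, the core shared by sites of ATF and CREB proteins, occurred in the H2-M10.1 window, on the other strand as ACGTCA at -107, and in 7.51% of all promoters. CCAAT occurred in the windows of Akr1b7, Avil, Car6 and H2-M10.1 and in 37.4% of all promoters. The H2-M10.1 window held 3 of these boxes, at -136, -76 and -28. CAGCTG, an E-box that MyoD and myogenin can bind, occurred in Car6 at -69 and in 1 of the Cdsn windows, and in 16.3% of all promoters. The ER stress elements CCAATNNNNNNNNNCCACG and ATTGGNCCACG, which contain a CCAAT box, and TGACGTGG, which contains TGACGT, occurred in 0.119%, 0.0365% and 0.676% of all promoters and in 0 of the 6 windows. TATAAA occurred in 0 of the 6 windows and in 13.6% of all promoters. A match is a string of letters and was not tested as a binding site. In the annotation of the mm9 build Avil and Car6 have 4 transcripts each, and the start used in these cells was not determined.

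In growing cells, 5 of the 6 genes were near 0 in every line. Avil lay between 0.0186 and 0.088 FPKM over the 10 growth libraries. H2-M10.1 was listed at 0 in 8 of them and reached 0.014 FPKM in the H3.3 line. Akr1b7 reached 0.09 FPKM, Try5 0.153 FPKM and Car6 0.284 FPKM. Cdsn went against the label, with 0.958 FPKM in H3.1, a median of 1.44 FPKM and 2.36 FPKM in H3mm7. It was thus present at a low level before differentiation in all 10 lines, in the D3 lines at 1.87 FPKM (H3.3), 2.36 FPKM (H3mm7) and 1.74 FPKM (H3mm11).

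**Figure D1:**
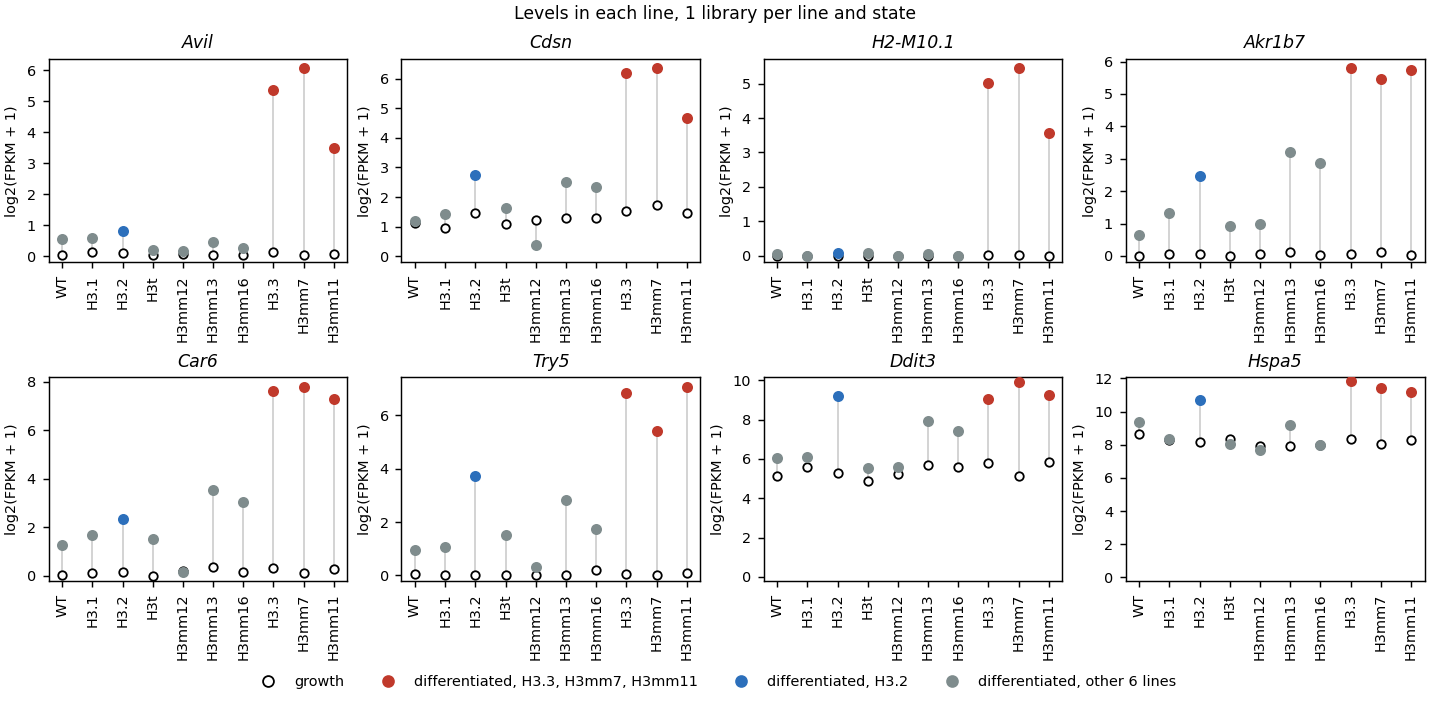
Level of each gene, as log2(FPKM + 1), in each of the 10 lines, with growth libraries as open circles and differentiated libraries as filled circles. The 6 genes are high in the 3 red libraries, while Ddit3 is as high in H3.2 (blue, 582 FPKM) as in H3.3 (535 FPKM).

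After differentiation, Avil was 40.7 FPKM in H3.3, 65.9 FPKM in H3mm7 and 10.33 FPKM in H3mm11. In the other 7 differentiated libraries it was 0.124 FPKM in H3mm12, 0.153 FPKM in H3t, 0.189 FPKM in H3mm16, 0.383 FPKM in H3mm13, 0.465 FPKM in WT, 0.499 FPKM in H3.1 and 0.761 FPKM in H3.2. The groups did not overlap, and the lowest D3 library was 13.6 times the highest other library. On the log2(FPKM + 1) scale the means were 4.98 ± 1.33 (SD, n = 3) and 0.43 ± 0.24 (SD, n = 7). Avil varied 6.38-fold among the D3 lines, more than any other of the 6 genes.

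H2-M10.1 had the sharpest edge. It was 31.2 FPKM in H3.3, 42.6 FPKM in H3mm7 and 10.9 FPKM in H3mm11. In the other differentiated libraries it was listed at 0 in H3.1, H3mm12 and H3mm16, and its values were 0.0233 FPKM in WT, 0.0365 FPKM in H3mm13, 0.048 FPKM in H3.2 and 0.0534 FPKM in H3t. The lowest D3 library was 204 times the highest of these, a ratio to values under 0.1 FPKM that few fragments can move, with log2 means of 4.68 ± 0.98 (SD, n = 3) and 0.03 ± 0.03 (SD, n = 7). The order H3mm7, H3.3, H3mm11 was the same as for Avil.

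Cdsn followed the same order, with 71.9 FPKM in H3.3, 81.0 FPKM in H3mm7 and 24.5 FPKM in H3mm11. Its other differentiated values ran from 0.32 FPKM in H3mm12 over a median of 2.09 FPKM to 5.75 FPKM in H3.2, so the edge was 4.25-fold. In H3mm12 it was lower after differentiation than in growth, where it was 1.35 FPKM. The log2 means were 5.74 ± 0.93 (SD, n = 3) and 1.75 ± 0.83 (SD, n = 7).

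Akr1b7 and Car6 were nearly level among the D3 lines. Akr1b7 was 54.3 FPKM in H3.3, 43.0 FPKM in H3mm7 and 52.3 FPKM in H3mm11, a 1.26-fold range. In the other lines it was 0.558 FPKM in WT, 0.908 FPKM in H3t, 0.974 FPKM in H3mm12, 1.51 FPKM in H3.1, 4.5 FPKM in H3.2, 6.29 FPKM in H3mm16 and 8.24 FPKM in H3mm13. Each of these 7 libraries was above the highest growth library, and the 7 values fell into a lower set of 4 and a higher set of 3, the latter H3.2, H3mm16 and H3mm13. The log2 means of Akr1b7 were 5.66 ± 0.18 (SD, n = 3) and 1.77 ± 1.04 (SD, n = 7).

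Car6 had the highest level of the 6 genes in each D3 library, with 197 FPKM in H3.3, 219 FPKM in H3mm7 and 154 FPKM in H3mm11. In the other lines it was 0.105 FPKM in H3mm12, 1.41 FPKM in WT, 1.9 FPKM in H3t, 2.21 FPKM in H3.1, 4.01 FPKM in H3.2, 7.18 FPKM in H3mm16 and 10.49 FPKM in H3mm13. The same 3 lines as for Akr1b7 made up the top of the other 7. The log2 means were 7.56 ± 0.26 (SD, n = 3) and 1.93 ± 1.14 (SD, n = 7), the largest difference of the 6 genes, 5.63.

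Try5 differed from the rest in the order of the lines. It was 112 FPKM in H3.3 and 133 FPKM in H3mm11 but 41.8 FPKM in H3mm7, the line in which Avil, Cdsn, H2-M10.1 and Car6 were highest. H3.2 came next with 12.4 FPKM, followed by H3mm13 with 6.06 FPKM and H3mm16 with 2.36 FPKM, and the lowest was H3mm12 with 0.25 FPKM. The log2 means were 6.44 ± 0.89 (SD, n = 3) and 1.74 ± 1.18 (SD, n = 7).

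Each of the 6 genes had its lowest D3 library above the highest of the other 7 differentiated libraries, by choice. The same held for 974 of the 10954 genes with a mean of at least 1 FPKM over the 20 libraries, or 8.89%, a filter that all 6 genes passed. The 7 other differentiated libraries were all above the highest growth library for Avil, Akr1b7 and Try5, 3 of the 6 genes, against 12.7% of all genes tested. Their growth level near 0 was part of the choice, so nothing is read from that share. Car6 was above its highest growth library in 6 of the 7, H2-M10.1 in 4 and Cdsn in 3. A level above 1 FPKM was seen for Avil and H2-M10.1 in 0 of the 7 other lines, for Akr1b7 in 4, for Try5 in 5 and for Car6 and Cdsn in 6 each.

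The pattern was rare in the table. Below 1 FPKM in all growth libraries, at least 5 FPKM in the 3 D3 libraries and above the other 7 differentiated libraries stood 15 of the 22489 genes, or 0.0667%. These held 5 of the 6 genes, since Cdsn fell outside by its growth level. The pattern repeats the rule that picked the 6 genes, so their place in it and in its ranking follows from that choice. Ranked by the lowest D3 over the highest other library, the first 10 were H2-M10.1, Car6, Avil, Cd74, Taf7l, P2rx3, Akr1b7, Ifitm6, Igfbp4 and Try5. Cd74, the invariant chain of MHC class II, was 14.3, 24.2 and 6.07 FPKM in H3.3, H3mm7 and H3mm11 and at most 0.528 FPKM in the other 7. P2rx3, an ATP-gated channel of sensory neurons, was 8.81, 9.41 and 7.8 FPKM in the same 3 lines, and 1.48 FPKM in H3mm13, the highest of the other lines. Taf7l, a germ cell paralog of a general transcription factor subunit, was 7.15, 6.23 and 7.62 FPKM in the D3 lines and at most 0.633 FPKM in the others.

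Likeness was measured as Pearson's r of log2(FPKM + 1) over the 20 libraries among 9957 genes that reach 5 FPKM, as a description, since the choice of the 6 genes fixes much of it and the libraries of a line share that line. Avil and H2-M10.1 were each other's closest genes (r = 0.992), followed for both by Cd74 and Ostn, the gene of the muscle-secreted peptide osteocrin. Akr1b7 and Car6 were likewise each other's closest genes (r = 0.985), followed for both by Sh3tc2 and Atp2a3, an ER calcium pump. Over the 7 other differentiated libraries, which the D3 contrast does not dominate, r was 0.894 for Akr1b7 and Car6 and 0.298 for Avil and H2-M10.1, whose values there lie near 0. Cdsn was most like Dyrk4, Wars, the cytosolic tryptophanyl-tRNA synthetase (r = 0.967), and Igfbp4. Try5 was most like Acox2, a peroxisomal oxidase of bile acid synthesis (r = 0.986), Paqr3 and Akr1b7. Acox2 showed the line order of Try5, at 53.7 FPKM in H3.3, 31.3 FPKM in H3mm7, 74.9 FPKM in H3mm11 and 13.3 FPKM in H3.2.

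Ddit3 and Hspa5 were examined beside the 6 genes in each library. Ddit3 lay between 27.9 and 56.7 FPKM in growth. After differentiation it was 535 FPKM in H3.3, 945 FPKM in H3mm7 and 596 FPKM in H3mm11, but also 582 FPKM in H3.2. It was 242 FPKM in H3mm13 and 169 FPKM in H3mm16, and between 44.7 and 67.6 FPKM in H3t, H3mm12, WT and H3.1. Ddit3 thus did not separate the D3 group, because H3.2 lay between H3.3 and H3mm11.

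Hspa5 lay between 240 and 406 FPKM in growth. After differentiation it was 3688 FPKM in H3.3, 2780 FPKM in H3mm7 and 2330 FPKM in H3mm11. H3.2 came next with 1687 FPKM, then WT with 665 FPKM and H3mm13 with 576 FPKM, and the lowest was H3mm12 with 205 FPKM. Hspa5 kept the D3 lines above the others by 1.38-fold, a narrower edge than for any of the 6 genes. The 6 genes were picked as high in the D3 lines, so nothing is read from that contrast.

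**Figure D2:**
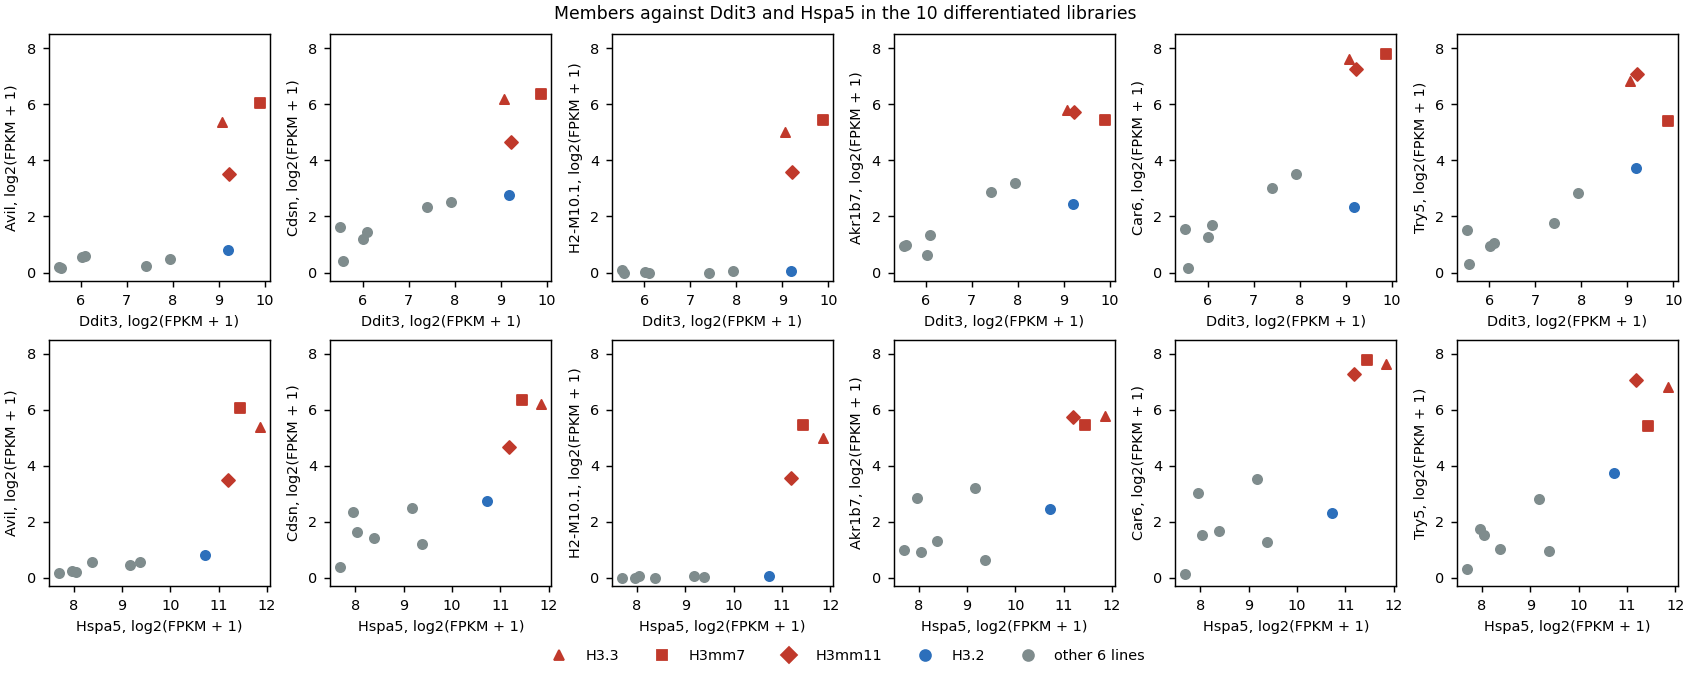
Each of the 6 genes against Ddit3 (upper panels) and Hspa5 (lower panels) in the 10 differentiated libraries, all as log2(FPKM + 1), with D3 lines in red, H3.2 in blue and the other 6 lines in grey. At the Ddit3 level of H3.3 and H3mm11, H3.2 lies below them for each of the 6 genes, by 227-fold or more for H2-M10.1 and by 4.25-fold and 12.5-fold for Cdsn. That H3.2 lies below them follows from the choice of the 6 genes.

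H3.3 and H3mm11 had Ddit3 at 0.918 and 1.02 times its level in H3.2, whereas H3mm7 had 1.62 times that level. The genes set against Ddit3 were picked as high in the D3 lines and lower elsewhere. At a similar Ddit3 level, their gap to H3.2 follows from that choice, also when given per 100 FPKM of Ddit3. These values therefore cannot decide whether the genes follow Ddit3, and they are given as a description. Compared with H3.2, H2-M10.1 was 649-fold higher in H3.3 and 227-fold higher in H3mm11, with the H3.2 value under 0.1 FPKM. Car6 was 49.0-fold and 38.3-fold higher, and Avil 53.4-fold and 13.6-fold higher. Cdsn was 12.5-fold and 4.25-fold higher, Akr1b7 12.1-fold and 11.6-fold higher, and Try5 9.08-fold and 10.8-fold higher. In H3mm7, with the highest Ddit3, Try5 was 3.39-fold higher than in H3.2, less than in the other D3 lines. Per 100 FPKM of Ddit3, Car6 was between 23.2 and 36.8 FPKM in the D3 lines, 0.689 FPKM in H3.2 and at most 4.33 FPKM in the other lines (H3mm13). Avil was between 1.73 and 7.61 FPKM per 100 FPKM of Ddit3 in the D3 lines and 0.131 FPKM in H3.2. Cdsn overlapped on this scale, since H3t with 4.67 FPKM per 100 FPKM of Ddit3 lay above H3mm11 with 4.11 FPKM. Per 100 FPKM of Hspa5, Akr1b7 and Cdsn overlapped. Akr1b7 was 1.47 to 2.25 FPKM on this scale in the D3 lines and 2.54 FPKM in H3mm16, and Cdsn was 1.05 to 2.91 FPKM in the D3 lines and 1.65 FPKM in H3mm16.

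The place of H3.2 was measured on the log2(FPKM + 1) scale, with the mean of the 6 other lines set to 0% and the mean of the 3 D3 lines to 100%. H2-M10.1 stood at 0.881%, Car6 at 8.1%, Avil at 9.66%, Akr1b7 at 20.0%, Cdsn at 28.2% and Try5 at 46.4%, with a median of 14.8%. Ddit3 stood at 93.2% and Hspa5 at 74.8%. Over the 422 genes that were above the 6 other lines in the D3 group by at least 1 on this scale, the median was 38.3% and the middle 50% lay between 13.9% and 64.0%. For genes of the PERK-ATF4-CHOP branch the median was 79.2% (11 genes). It was 52.3% for ER chaperones and folding enzymes (11 genes) and 66.7% for the ATF6-XBP1 branch and ER-associated degradation (8 genes). Both sets of values come from 1 library of H3.2, so no error can be given, and this measure was chosen after the values were seen. The 6 genes were picked as high in the D3 group, which sets H3.2 low by choice. The 422 genes and the lists were taken without regard to H3.2, so nothing is read from the contrast with the 6 genes.

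**Figure D3:**
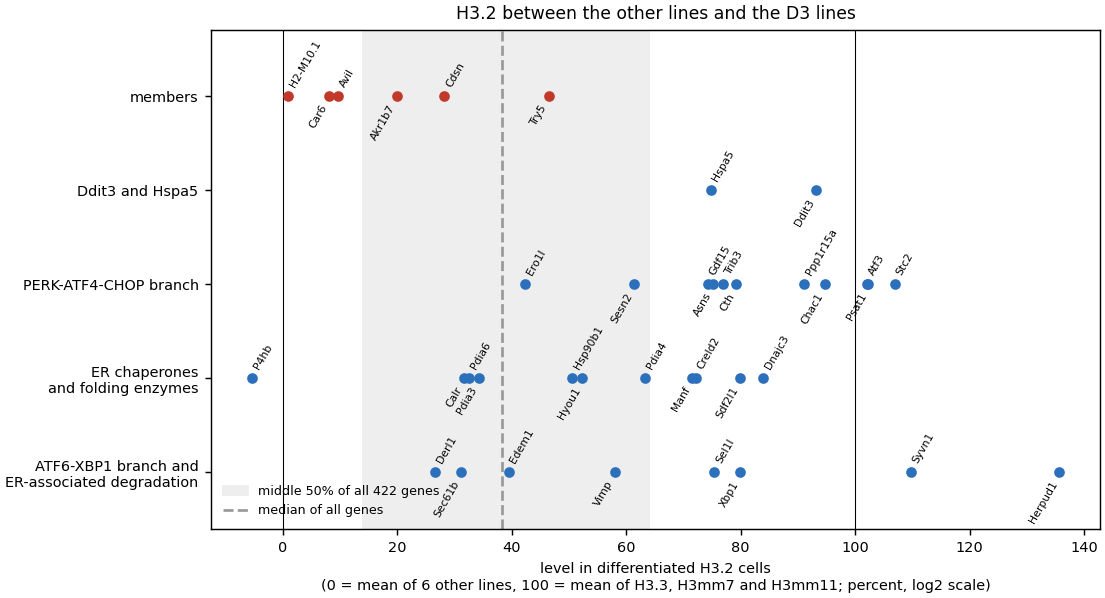
Place of the differentiated H3.2 library between the mean of the 6 other lines (0) and the mean of the D3 lines (100), in percent on the log2 scale, for each gene, with the median (dashed) and the middle 50% (grey band) of 422 genes. The 6 genes lie between 0.881 and 46.4, and Ddit3 lies at 93.2. H3.2 is low in the 6 genes by their choice, while the 422 genes were taken without regard to H3.2.

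Within the 7 other differentiated libraries, the levels were set against Ddit3 and Hspa5 as Pearson's r and Spearman's rho of 7 libraries, with no p. The 10 libraries fall into 2 clusters by choice, so r over all 10 was not used. With Ddit3, r was 0.929 for Try5 (rho = 0.786), 0.874 for Cdsn (rho = 0.786), 0.823 for Akr1b7 (rho = 0.786) and 0.717 for Car6 (rho = 0.786). Without H3.2 and H3mm13, the 2 libraries farthest from the median of Ddit3, r was 0.608 for Try5, 0.765 for Cdsn, 0.919 for Akr1b7 and 0.86 for Car6 (n = 5). Avil had r = 0.635 with Ddit3 (rho = 0.679), which fell to 0.0538 without these 2 libraries, so that relation rested on them. H2-M10.1 had r = 0.337 (rho = 0.0371), and -0.484 without them, over values at or near 0. With Hspa5, r was 0.9 for Avil (rho = 0.857), 0.771 for Try5 (rho = 0.5), 0.584 for Cdsn (rho = 0.5), 0.566 for H2-M10.1 (rho = 0.519), 0.334 for Car6 (rho = 0.286) and 0.296 for Akr1b7 (rho = 0.0357). Without H3.2 and WT, the 2 libraries farthest from the median of Hspa5, these were 0.719, 0.828, 0.658, 0.398, 0.72 and 0.629 in the same order (n = 5).

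The lists of ER stress genes, without Ddit3 and Hspa5, were compared between 10 growth and 10 differentiated libraries with limma on log2(FPKM + 1), over 10954 genes with Benjamini-Hochberg adjustment. Of all genes, 972 (8.87%) were higher and 921 (8.41%) lower after differentiation, where a call needs an adjusted p under 0.05 and a log2 difference of 1 or more. In the PERK-ATF4-CHOP branch 9 of 20 genes rose and 0 fell, with a median difference of 0.94 against 0.04 over all genes. Fgf21, a stress hormone, rose by 5.15 ± 0.36 (SE, limma adjusted p = 1.24e-10) and Trib3, a pseudokinase induced by CHOP, by 3.03 ± 0.51 (SE, limma adjusted p = 3.56e-05). Of the genes called in this list, Sesn2 (1.47 ± 0.28, limma adjusted p = 0.000141) and Atf4 (1.04 ± 0.20, limma adjusted p = 0.000168) rose least. Of the ER chaperones and folding enzymes 1 of 15 rose, Dnajb9, a BiP co-chaperone, by 2.54 ± 0.35 (SE, limma adjusted p = 2.70e-06), and 0 fell. Of the ATF6-XBP1 branch and ER-associated degradation 5 of 17 rose and 0 fell, with Herpud1, which organises ER-associated degradation, at 2.49 ± 0.36 (SE, limma adjusted p = 4.21e-06) and the sensor Atf6 at 1.58 ± 0.13 (SE, limma adjusted p = 8.08e-10). Sel1l (1.38 ± 0.26) and Syvn1 (1.07 ± 0.30), the core of the degradation complex, rose least of those called.

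The same lists were then read by line. In the D3 group, 9 of 15 chaperone genes, 7 of 20 genes of the PERK-ATF4-CHOP branch and 4 of 17 of the ATF6-XBP1 branch lay above all other 7 differentiated libraries, or 20 of 52 in all, beside 8.89% of all genes. The 52 genes were not picked by this contrast, but ER stress was known to mark the D3 group in these data when the lists were written. Of 1214 genes above the 6 lines other than H3.2, H3.2 reached the lowest D3 level in 240, or 19.8%. In the 3 lists together this was so for 16 of 36 genes, among them Atf3 and Ppp1r15a. Atf4, the activator of Ddit3, was 720, 791 and 739 FPKM in H3.3, H3mm7 and H3mm11 and 914 FPKM in H3.2. Tenm4, which carries the older name Doc4 and is a further gene downstream of CHOP, was 1.65, 0.688 and 1.14 FPKM in the D3 lines and 0.0103 FPKM in H3.2, and at most 0.0901 FPKM in the other 7. Its growth level was at most 0.00521 FPKM, so it shared with Avil and Car6 the split of the D3 lines from the rest, at a lower level. The order of lines was not shared, since Tenm4 was lowest of the D3 lines in H3mm7, where Avil and Car6 were highest.

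In growth, with 5 of the 6 genes near 0, the 3 D3 lines were set against the other 7 lines with limma over 10612 genes. Only Tnni1, the slow troponin I of muscle, was higher (1 gene, 0.00942%, difference 1.46 ± 0.15, limma adjusted p = 0.0056) and 0 genes were lower, with 736 genes at an unadjusted p below 0.05. The count was 0 without H3.3, 6 without H3mm7, 3 without H3mm11 and 4 without H3mm13. Of the 3 ER stress lists 0 of 50 genes were called and 1 had an unadjusted p below 0.05, with a smallest limma adjusted p of 0.525. Ddit3 was 54.8, 34.1 and 56.7 FPKM in growing H3.3, H3mm7 and H3mm11 cells and 38.2 FPKM in H3.2. Hspa5 was 324, 267 and 310 FPKM in the D3 lines and 290 FPKM in H3.2.

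Tissues that 5 of the 6 genes are known from, and blood, were checked by marker genes. For Akr1b7 the list covered steroid cells of the adrenal cortex and testis, and the vas deferens was not checked. Bulk levels cannot tell fewer expressing cells from less RNA per cell. Of 6 salivary markers 6 were below 1 FPKM in all D3 libraries and 5 were at 0, with a summed level of 0.0949 to 0.25 FPKM in the D3 group and 0.0137 to 0.497 FPKM in the other 7. Of 6 adrenal and testis steroid markers 6 were below 1 FPKM, summed 0.624 to 1.34 FPKM against 0.414 to 0.967 FPKM. Of 7 pancreas markers 4 were at 0, among them Ptf1a and Pnlip, and the sum of 33.1 to 55.9 FPKM lay within that of the other 7, 28.3 to 101 FPKM. Cela1 was 16.2 to 27.6 FPKM, Ctrb1 15.4 to 37.1 FPKM and Cpa1 1.18 to 2.61 FPKM in the D3 group. In growth, Ctrb1 was at most 0.22 FPKM and Cpa1 at most 0.133 FPKM, and both were higher after differentiation in all 10 lines. Of 6 keratinocyte markers 3 were below 1 FPKM, with Krt1 at 0 and Krt5 at most 0.00954 FPKM, summed 6.96 to 7.57 FPKM against 10.49 to 29.7 FPKM. Krt14 was 4.53 to 5.76 FPKM in the D3 group, Krt10 0.963 to 1.97 FPKM and Trp63 0.42 to 1.77 FPKM. In growth, Krt14 was 55.9 to 86.9 FPKM and Trp63 at most 0.189 FPKM. Of 6 vomeronasal markers 3 were below 1 FPKM, with Omp at most 0.0335 FPKM, summed 157 to 231 FPKM against 134 to 316 FPKM. Of 6 blood markers 5 were below 1 FPKM, summed 4.44 to 5.54 FPKM against 2.55 to 8.21 FPKM. Of these 6 lists no gene had its D3 libraries above all others.

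Muscle markers were present in all differentiated libraries. Their summed level was 3391 to 4819 FPKM in the D3 group and 3846 to 17412 FPKM in the other 7. Of the 8 markers 3 (Myod1, Myh3, Actc1) were below all others in the D3 group, beside 863 of all 10954 genes with a mean of at least 1 FPKM. The 6 genes were thus high in the libraries in which these 3 markers were lowest, and the part of muscle differentiation in the result was not tested.

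The 6 genes lie on 4 chromosomes in the mm9 build with its GENCODE annotation. Avil spans chr10:126437765-126458050 on the plus strand, Car6 chr4:149561124-149575441 on the minus strand, Akr1b7 chr6:34362334-34373142 on the plus strand and Try5 chr6:41261232-41266840 on the minus strand. On chromosome 17, Cdsn spans chr17:35689073-35694125 on the plus strand and H2-M10.1 chr17:36459803-36463100 on the minus strand, 766 kb apart. All are annotated as protein-coding, and the FPKM count exon fragments of the whole gene.

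**Figure D4:**
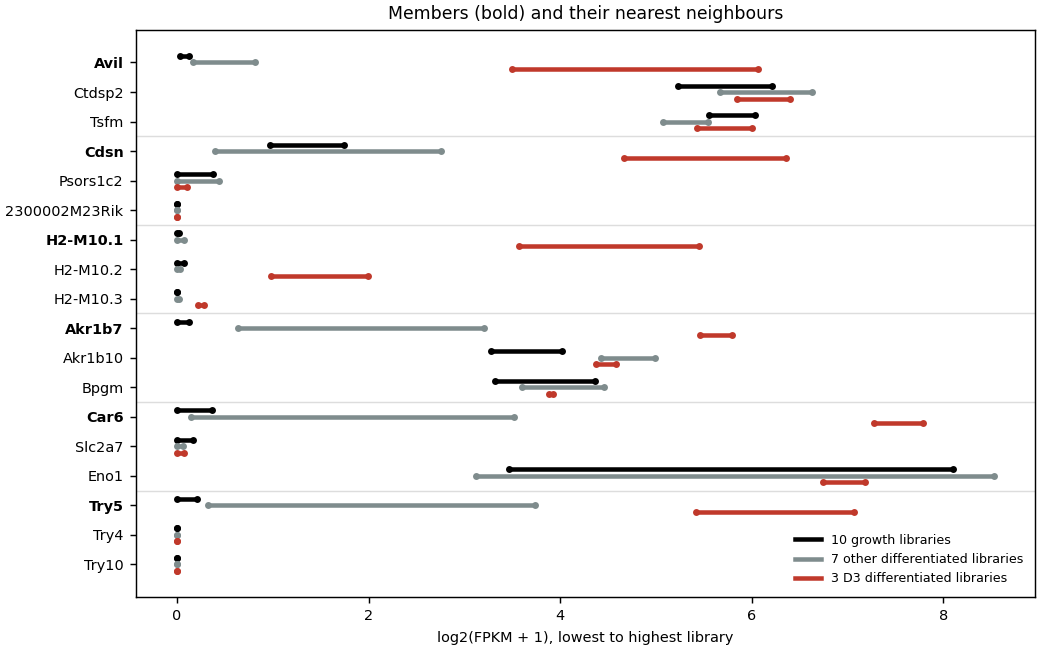
Range of log2(FPKM + 1) from the lowest to the highest library for each of the 6 genes (bold) and the nearest genes on either side, in 10 growth (black), 7 other differentiated (grey) and 3 D3 differentiated libraries (red). Only beside H2-M10.1 do the neighbours, H2-M10.2 and H2-M10.3, have their D3 libraries above all others.

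The neighbours moved with the 6 genes at 1 place only. H2-M10.2, before H2-M10.1, was 2.37 FPKM in H3.3, 2.97 FPKM in H3mm7 and 0.967 FPKM in H3mm11 and at most 0.0248 FPKM in the other 7. H2-M10.3, after it, was 0.166 to 0.217 FPKM in the D3 group and at most 0.0144 FPKM elsewhere after differentiation. These genes share sequence with H2-M10.1. Of its transcripts' 31-base words 18.3% occur in 6 other genes, most in H2-M10.2 (9.01%), so part of their level may be reads of H2-M10.1 and the split is uncertain. Try5 shares 52.5% of its words with 7 genes, most with Try4 (46.6%). Try4 and Try10, its neighbours, were at 0 in all 20 libraries. Akr1b7 shares 7.35% with 2 genes, mainly Akr1b10, its neighbour, which was 19.8 to 23.0 FPKM in the D3 group and 20.5 to 30.7 FPKM in the other 7. Car6 and Cdsn share no word, and their neighbours Slc2a7, Psors1c2 and 2300002M23Rik were at most 0.354 FPKM in every library. Eno1, the neighbour of Car6 on the other side, was 106 to 144 FPKM in the D3 group and 7.69 to 368 FPKM in the other 7, and Bpgm, after Akr1b7, was 13.7 to 14.2 FPKM against 11.2 to 21.0 FPKM. Avil shares 0.0582% of its words, with Vil1. Tsfm overlaps Avil on the opposite strand, and the sources do not state that reads were counted by strand. It was 41.9 to 63.2 FPKM in the D3 group and 32.6 to 45.5 FPKM in the other 7, a range that overlapped. Ctdsp2, 734 bases before Avil, was 56.4 to 83.4 FPKM in the D3 group and 50.01 to 97.6 FPKM in the other 7.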

How the data were processed

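mRNA-Seq reads of the GFP-H3 lines were mapped to mm9 with TopHat (version 2.0.8), and the authors deposited FPKM values estimated by cuffdiff of Cufflinks (version 2.0.1) with default parameters. The mapping of WT reads is not given in the sources used here. The column named H3mmT was taken as the H3t line. The 6 genes and all gene lists were chosen with earlier results of these data known. Most named genes follow a fixed rule (the 6 genes, the 3 most like each, the first 10 of the same pattern, neighbours within 100 kb, and called genes of each list with the largest and smallest differences, up to 4). The rule also takes in relatives of the 6 genes that reach 1 FPKM in a library, of which only a part is named. Ddit3 and Hspa5 were given with the 6 genes, and Tenm4, Atf3 and Ppp1r15a were named after their values were seen. FPKM were tested as log2(FPKM + 1) with limma 3.58.1 (R 4.3.3, trend and robust settings) for genes with a mean of at least 1 FPKM. A fold change on this scale understates that of low genes. Lines are the units, so p-values measure the spread between different lines. The state of a line pairs its 2 libraries, since both come from the same line (correlation of deviations 0.273 to 0.877 over the 10 lines), and the fit with the line as a block is given in the closing section. The fits were tested on simulated data. Promoters and older names come from RefSeq (GRCm38.p6), and 20536 of 22489 symbols matched the mm9 annotation. The marker list for the tissue of Avil is not reported here. ChIP-Seq, amplicon and 3′-seq files were not used here. Python 3.11.15, pandas 2.3.3, NumPy 2.4.6, SciPy 1.17.1 and matplotlib 3.10.9 were used.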

Additional observations from a re-analysis of the deposited data

Results flagged for a closer look

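Try5 in growing H3mm16 cells stood apart from the other 9 growth libraries. It was 0.153 FPKM there, and its gap to the nearest library was 0.58 of the range of the 10 libraries on the log2(FPKM + 1) scale, above the limit set for 10 values. The value is low in absolute terms, and Try5 was listed at 0 in 6 of the 10 growth libraries. Chance flags about 1 in 20 groups drawn from 1 normal distribution, and 16 groups of libraries were checked. Values at 0 and the split made by the choice of genes depart from that, so the rate here is not known.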

How the results depend on the processing

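Growth against differentiated cells gave 695 to 1197 higher and 734 to 1106 lower genes over the other pseudocount, filters, normalization and without WT, and 948 to 1025 and 897 to 953 without each line in turn. With the line as a replicate block the counts were 979 higher and 931 lower, and no count of the ER stress lists changed. In growth, the D3 lines had 0 higher genes with a pseudocount of 0.1 FPKM or a mean of at least 5 FPKM, and 0 to 6 without each line in turn. With a pseudocount of 0.1 FPKM the D3 difference was 6.18 for Avil and 7.66 for H2-M10.1, against 4.55 and 4.64, and without each line it was 4.01 to 5.29 and 4.26 to 5.19, the highest of each without H3mm11. The genes of the same pattern numbered 9 with at least 10 FPKM and 30 with at least 2 FPKM in the D3 group, and 17 without WT. Each time they held the same 5 of the 6 genes, whose place in the pattern follows from their choice. The correlation of H2-M10.1 with Ddit3 turned to -0.484 without H3.2 and H3mm13, and correlations over 10 libraries were not run since the choice of genes splits them. The causes were not tested. Alternatives chosen after seeing the data left out WT from the line contrast, with 1125 genes and 22 ER stress genes above all others, 359 and 19 genes in which H3.2 reached the lowest D3 level, and 17 ER stress genes higher after differentiation. The median place of H3.2 over the 6 genes was 22.6% with a pseudocount of 0.1 FPKM and 13.03% without WT. Unknown read numbers limit every value under 0.1 FPKM, where a few fragments decide it.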

Other observations

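Relatives of the 6 genes that reach 1 FPKM in any library did not share their whole pattern, H2-M10.2 apart. That pattern is a level near 0 in growth and D3 libraries above all others. H2-M3 and Akr1a1 shared the second part only, since their growth levels were 0.514 to 1.3 FPKM and 358 to 452 FPKM. Not all of these relatives are named here. Among H2-M genes, H2-M3 was 1.14 to 2.03 FPKM in the D3 group and 0.228 to 1.06 FPKM in the other 7 differentiated libraries, and H2-M10.4 was 1.44 FPKM in H3mm7, 0.277 FPKM in H3.3 and 0 in H3mm11 and the other 7. Among villin relatives, Svil, the muscle protein supervillin, rose after differentiation (difference 2.28 ± 0.22, limma adjusted p = 1.60e-08) but was lower in the D3 group, at 6.53 to 8.67 FPKM against 12.5 to 29.6 FPKM. Capg fell by 1.32 on the log2 scale (limma adjusted p = 2.01e-06). Gsn was 67.2 to 111 FPKM in the D3 group against 106 to 264 FPKM, and Flii 49.7 to 52.8 FPKM against 49.8 to 76.1 FPKM.

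Among aldo-keto reductases, Akr1b8, the closest in name to Akr1b7, rose after differentiation (difference 1.03 ± 0.19, limma adjusted p = 7.06e-05) and stayed lower in the D3 group, at 54.2 to 56.7 FPKM against 93.2 to 185 FPKM. Akr1a1 was 530 to 579 FPKM in the D3 group against 406 to 478 FPKM. Among carbonic anhydrases, Car11 rose (difference 1.10 ± 0.13, limma adjusted p = 4.16e-07) and Car8 fell by 2.02 on the log2 scale (limma adjusted p = 7.91e-07). Car13 and Car5b were lower in the D3 group, at 29.8 to 47.8 FPKM against 51.5 to 105 FPKM and at 7.0 to 13.8 FPKM against 14.6 to 33.5 FPKM. Of the cornified envelope genes, Sprr1a fell by 4.7 on the log2 scale after differentiation (limma adjusted p = 9.29e-10), and 0 of 3 genes tested besides Cdsn rose. These line contrasts are descriptions with no test.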
